A study of Mus musculus with 5 samples.

Results

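The epidermal differentiation complex is the gene cluster on mouse chromosome 3 that encodes most proteins of the cornified envelope, and its H3K27me3 was examined here in dermal fibroblasts with and without the demethylase Kdm6b. The 45 members are the protein-coding genes of GENCODE M21 on chromosome 3 whose symbol starts with Lce or Sprr and a number, together with Flg, Flg2, Ivl, Lor, Rptn, Tchh, Tchhl1, Hrnr and Crnn, out of 21728 protein-coding genes on the autosomes and X. They comprise 21 Lce genes, 15 Sprr genes, 7 genes of the S100-fused type, and Ivl and Lor, and they span chr3:92080271-93471980 of mm10, an interval of 1391.7 kb. The rule uses gene symbols and position and no peak value.

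H3K27me3 ChIP-seq was compared between 2 Kdm6b-cKO libraries (replicates 3 and 4) and 2 WT libraries (replicates 7 and 9) of dermal fibroblasts from late embryonic mouse skin. Kdm6b-cKO embryos were Dermo1Cre; Kdm6b fl/fl, so that Kdm6b was deleted where Dermo1 (Twist2) drives Cre in the dermal mesenchyme. The labels call the WT libraries Kdm6bWT and give neither their alleles nor whether a library is 1 embryo, so the spread between libraries of a genotype may be technical. The cells of all libraries were cultured in AmnioMAX medium, and the labels state a sort for GFP, the sign of the conditional knockout, for every sample, WT included.

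Keratinocytes switch on the genes of this complex as they leave the basal layer. Involucrin (Ivl), loricrin (Lor), small proline-rich proteins (Sprr) and late cornified envelope proteins (Lce) are cross-linked by transglutaminases under the plasma membrane, while filaggrin (Flg) and the other S100-fused proteins bundle keratins or, as trichohyalin (Tchh), harden the inner root sheath of the hair follicle. Dermal fibroblasts are not known to use these genes. H3K27me3 is laid down by Polycomb repressive complex 2, mostly at silent CpG-rich genes, and Kdm6b (Jmjd3) removes it.

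Low CpG content, and outside the Lce family also motif content, set the start sites of the members apart from promoters in general. The sequences below were chosen to show that. RefSeq (GRCm38.p6) held promoters, from 250 bases before to 50 bases after the start, for 43 members. The 250 bases before the start are shown for Lor and Tchh, whose promoters lay under peaks in all 4 libraries, and for Ivl and Sprr1b, whose promoters lay under none. Each is written along the gene, with CpG dinucleotides in capitals.
Lor promoter, chr3:92083143-92083392, minus strand: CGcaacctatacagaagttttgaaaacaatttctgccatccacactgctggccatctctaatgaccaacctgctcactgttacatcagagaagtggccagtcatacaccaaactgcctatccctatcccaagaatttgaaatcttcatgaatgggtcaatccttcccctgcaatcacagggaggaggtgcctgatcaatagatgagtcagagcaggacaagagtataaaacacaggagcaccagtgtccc
Tchh promoter, chr3:93442080-93442329, plus strand: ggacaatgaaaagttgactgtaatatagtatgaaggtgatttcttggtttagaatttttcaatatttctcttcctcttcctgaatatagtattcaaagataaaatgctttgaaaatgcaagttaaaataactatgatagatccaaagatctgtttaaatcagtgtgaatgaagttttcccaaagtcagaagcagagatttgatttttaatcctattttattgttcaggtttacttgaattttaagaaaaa
Ivl promoter, chr3:92573736-92573985, minus strand: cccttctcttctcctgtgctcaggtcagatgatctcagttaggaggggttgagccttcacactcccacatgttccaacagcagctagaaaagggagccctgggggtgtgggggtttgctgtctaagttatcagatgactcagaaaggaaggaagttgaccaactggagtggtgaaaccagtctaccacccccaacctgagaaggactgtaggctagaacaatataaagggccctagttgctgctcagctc
Sprr1b promoter, chr3:92438780-92439029, minus strand: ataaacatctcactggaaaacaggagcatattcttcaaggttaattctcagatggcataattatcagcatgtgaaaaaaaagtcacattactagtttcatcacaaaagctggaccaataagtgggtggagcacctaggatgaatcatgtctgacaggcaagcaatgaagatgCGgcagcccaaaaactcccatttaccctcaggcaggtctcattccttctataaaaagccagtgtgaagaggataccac
These 4 stretches hold 1, 0, 0 and 1 CpG, in the order shown, so that near the start the covered promoters were as poor in CpG as the uncovered ones. Over the 300 bases of each RefSeq promoter the 43 members held 0 to 5 CpG (median 1), while the median of all 32619 mouse promoters was 7. The TATA box letters TATAAA, searched on both strands, stood in 46.5% of the members' promoters and in 13.7% of all promoters. The AP-1 letters TGANTCA, searched on both strands and sharing no full match with TATAAA, stood in 37.2% of the members' promoters and in 7.85% of all. Among the Lce promoters, none held TGANTCA, and only those of Lce6a, Lce1d, Lce3e and Lce1m held TATAAA. The excess of both motifs thus came mostly from the other families. Lor, Ivl and Sprr1b held both motifs in the 300 bases, Tchh held neither, and Tchhl1 held TGANTCA alone.

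Within 3 kb of the start, Lor and Tchh differ from the other members scored further inside the gene. The 300 coding bases richest in CpG within 3 kb of the start are shown for both, again along the gene with CpG in capitals.
Lor coding exon, chr3:92081211-92081510, minus strand: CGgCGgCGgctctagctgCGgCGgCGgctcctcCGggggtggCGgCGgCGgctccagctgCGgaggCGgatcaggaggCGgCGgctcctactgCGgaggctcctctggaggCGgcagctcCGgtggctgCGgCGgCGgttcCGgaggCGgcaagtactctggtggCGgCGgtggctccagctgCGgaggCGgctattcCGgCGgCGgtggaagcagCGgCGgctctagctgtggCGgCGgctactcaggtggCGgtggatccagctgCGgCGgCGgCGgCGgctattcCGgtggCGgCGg
Tchh coding exon, chr3:93444349-93444648, plus strand: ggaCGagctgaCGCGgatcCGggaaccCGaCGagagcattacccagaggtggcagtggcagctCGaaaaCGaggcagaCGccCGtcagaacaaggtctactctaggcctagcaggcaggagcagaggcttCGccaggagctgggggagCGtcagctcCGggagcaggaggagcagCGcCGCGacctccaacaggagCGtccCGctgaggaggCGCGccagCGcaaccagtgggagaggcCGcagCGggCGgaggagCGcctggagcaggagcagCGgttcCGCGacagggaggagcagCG
The Lor stretch lies in exon 2, which encodes the glycine-rich loricrin chain, and holds 42 CpG. The Tchh stretch lies in the large last exon, which encodes the glutamate- and arginine-rich trichohyalin repeats, and holds 29 CpG. Among the 22 other members with 300 coding bases in 1 exon of this window, the richest stretch held 0 to 16 CpG (median 4), with the 16 in Lce1m. Coding exons beyond the window were not scored, so CpG-rich coding sequence may occur in further members. A 0.952 kb part of the exon of filaggrin repeats in Flg, beyond the window, has 56.7 CpG per kb. Over the whole 6 kb around the start, Lor had 29.2 CpG per kb, Tchh 24.5 and Tchhl1 6.33, whereas the other 42 members had 1.83 to 9.50 (median 4). The median was 18.2 for all genes and 22.5 for the 3293 genes whose promoter was covered in all 4 libraries.

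Most of the complex carried no called H3K27me3 in either genotype. A promoter is here the 6 kb centred on the annotated start, and it counts as marked where peaks cover at least 500 bp. Marked promoters numbered 3 and 4 of the 45 members for Kdm6b-cKO (6.67% and 8.89%) and 3 in each WT library (6.67%), while all genes were marked at 26.4% and 24.9% in Kdm6b-cKO, against 19.7% and 16.3% in WT. Across the libraries 4 members were marked at least once, and 28.8% of all genes were. Peaks touched the promoter window of 6 members (Lor, Tchh, Tchhl1, Lce3a, Lce3d and Lce3e), and the other 39 had 0 bp in every library. A wider window gave the same picture. Within 25 kb of the start, 29 members had 0 bp in all 4 libraries, and 8 and 11 members had some coverage in Kdm6b-cKO, against 10 and 7 in WT. For all genes these shares were 54.0% and 52.2% in Kdm6b-cKO and 43.9% and 37.8% in WT.

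The peaks that were called sat at both ends of the complex. The interval held 14 and 16 peaks in Kdm6b-cKO and 11 and 11 in WT. Between positions 92239461 and 93344293 lay 1104.8 kb without any region called in 2 or more libraries. By GENCODE, 39 member starts, those of Sprr2a3 to Hrnr, fall in it. In this stretch peaks covered 0.0773% and 0.241% in Kdm6b-cKO and 0.0291% and 0.0922% in WT. On its distal side, the last 127.69 kb, with Rptn, Tchh and Tchhl1, were covered by 16.8% and 10.2% in Kdm6b-cKO and by 16.5% and 12.8% in WT. On its proximal side, the 159.19 kb from Lor to Sprr2a2 were covered by 3.34% and 3.69% in Kdm6b-cKO and by 3.65% and 2.81% in WT. The longest stretch with no peak in any library ran for 434.65 kb and held 16 starts, from Sprr4 to Lce1l and with Ivl among them. Lce1e was the member farthest from any peak, at 216.36 kb. Most of these promoters can be mapped with short reads, since 35 of the 39 members with an uncovered promoter had 90% or more of the 100-base windows of that promoter unique in the genome.

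**Figure D1:**
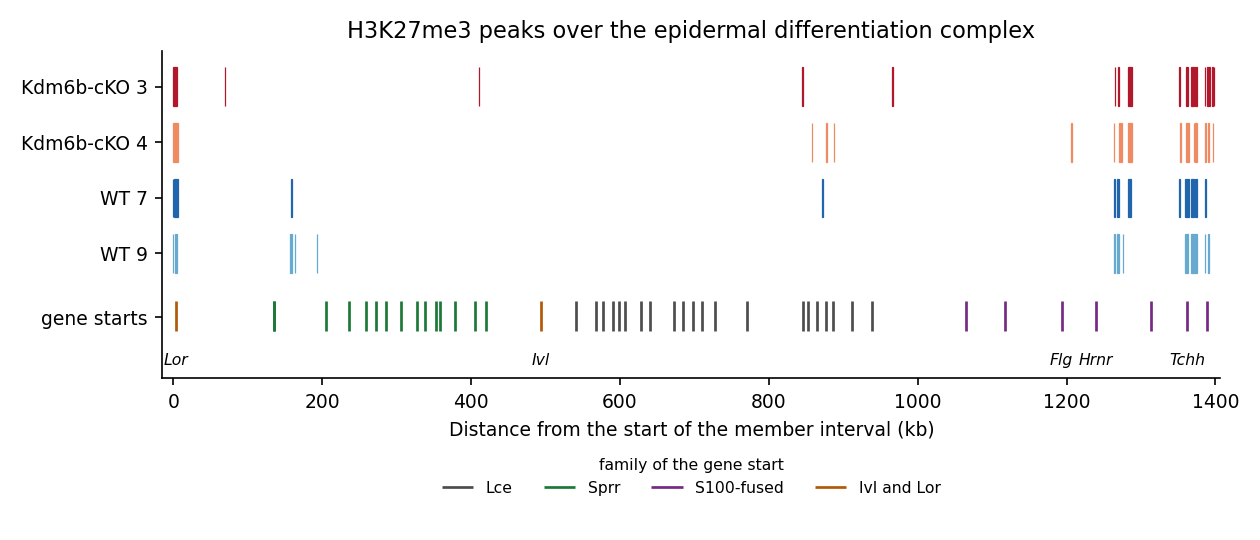
Peaks of each library over the member interval, with the distance from its start in kb on the horizontal axis, 1 row for each library (Kdm6b-cKO above WT) and, below, the starts of the 45 members coloured by family. Peaks crowd at Lor on the left and between Hrnr and Tchhl1 on the right, and the 1104.8 kb between hold short peaks of single libraries.

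Loricrin was covered in every library, more in Kdm6b-cKO than in WT, though not beyond the spread. The Lor promoter (ENSMUSG00000043165.7, chr3:92080271-92083142, minus strand) was covered over 86.7% and 100% in the Kdm6b-cKO libraries, against 82.0% and 38.2% in the WT libraries. Both Kdm6b-cKO libraries stood above both WT libraries, as they did for 49.0% of all 6252 promoters tested, and WT replicate 9 was far below the other libraries. The difference, Kdm6b-cKO minus WT, was 33.2 points ± 20.3 (SE), with an adjusted p of 0.466 by limma, a linear model of covered percent fitted across all marked promoters with Benjamini-Hochberg adjustment. With each list reduced to its strongest peaks up to the same total length, the Lor difference turned to -15.7 points (adjusted p = 0.967), and it was the same with only peaks of a -log10 q of at least 4 (adjusted p = 0.949). It was 11.3 points without WT replicate 9 and 55.2 points without WT replicate 7. Within 25 kb, Lor had 6.38 and 6.09 kb under peaks in Kdm6b-cKO, against 5.43 and 2.98 kb under them in WT (adjusted p = 0.298 by limma).

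The peaks at Lor also differed in shape. In Kdm6b-cKO 1 unbroken peak ran over the whole gene, from 2.2 kb upstream to 4.18 kb downstream of the start in replicate 3 and from 3.01 kb upstream to 3.08 kb downstream in replicate 4. In WT the mark was split: it ran from 3.21 kb upstream to 1.79 kb downstream in replicate 7 and from 1.18 kb upstream to 1.11 kb downstream in replicate 9, and resumed beyond the last exon. The CpG-rich coding stretch printed above was thus covered over all 300 bases in both Kdm6b-cKO libraries, against 163 bases in WT replicate 7 and 0 in WT replicate 9. The gene body of Lor was covered over 100% and 100% in Kdm6b-cKO and over 62.5% and 38.8% in WT. All 100-base windows of the Lor promoter were unique.

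Trichohyalin ran the other way, with less coverage in Kdm6b-cKO. The Tchh promoter (ENSMUSG00000052415.5, chr3:93442330-93449077, plus strand) was covered over 46.1% and 55.4% in Kdm6b-cKO, against 83.5% and 74.0% in WT. Both WT libraries stood above both Kdm6b-cKO libraries, which held for 2.42% of the promoters tested. The difference was -28.0 points ± 5.91 (SE), with an adjusted p of 0.132 by limma, so it did not pass. With lists of equal covered length it was -78.8 points (adjusted p = 0.0355 by limma). That is the whole WT mean, since the shortened Kdm6b-cKO lists held no peak at this promoter. The cut was to the 61.5 Mb of WT replicate 9, from 148 and 124 Mb in Kdm6b-cKO, so it was uneven between genotypes. With only peaks of a -log10 q of at least 4 the Tchh difference was -13.9 points (adjusted p = 0.953 by limma). Centring each library on its own mean, which shifts every promoter by the same amount and so sets Tchh against the general gain, gave -45.2 points (adjusted p = 0.00735). Within 25 kb of the start, Tchh had 11.1 and 6.83 kb under peaks in Kdm6b-cKO, against 13.6 and 12.3 kb under them in WT (adjusted p = 0.227 by limma).

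The peaks over the Tchh start reached less far upstream in Kdm6b-cKO. They began 1.38 and 1.44 kb before the start in Kdm6b-cKO, against 3.03 and 2.91 kb before it in WT, and ended 1.39 and 1.88 kb after it in Kdm6b-cKO, against 2.01 and 1.53 kb after it in WT. The upstream edges separated the genotypes and the downstream edges of these peaks overlapped. A further region was called in all 4 libraries. In Kdm6b-cKO replicate 3 and both WT libraries it began inside the last exon, near the end of its coding part. In Kdm6b-cKO replicate 4 it began 9.16 kb from the start, beyond the gene. It was covered over 5.84 and 2.29 kb in Kdm6b-cKO, against a length of 6.55 and 7.33 kb in WT. Its far edge lay 12.7 and 12.7 kb from the start in Kdm6b-cKO, against 13.4 and 13.2 kb from it in WT. Both its length and its far edge thus separated the genotypes as well. Between both regions no library had a peak. That gap of 3.683 kb (chr3:93444340-93448022) lies within the last exon of Tchh and includes the CpG-rich stretch printed above. It has 77.4 CpG per kb and 61.3% GC, far more CpG than the covered parts on either side (15.9 and 4.02 per kb), and 96.2% of its 100-base windows were unique.

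**Figure D2:**
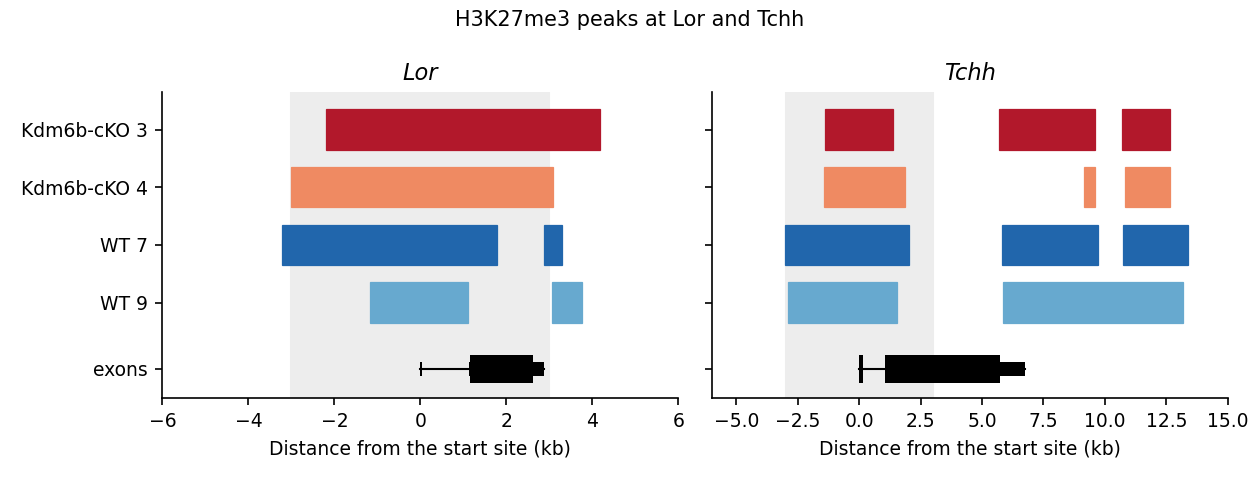
Peaks of each library (Kdm6b-cKO above WT) at Lor and Tchh against the distance from the start in kb along the gene, with exons in black (coding parts taller) and the promoter window shaded. At Lor the Kdm6b-cKO peaks are unbroken and those of WT are split over the coding exon, and at Tchh the WT peaks begin farther upstream while most of the large coding exon, beyond its first part, is free of peaks in all 4 libraries.

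Trichohyalin-like 1 was the third member marked in every library. The Tchhl1 promoter (ENSMUSG00000027908.2, chr3:93468754-93471980, plus strand) was covered over 58.9% and 23% in Kdm6b-cKO, against 14.1% and 19.0% in WT. Both Kdm6b-cKO values were the higher, that of replicate 4 by little, and the difference was 6.46 points without Kdm6b-cKO replicate 3 and 42.3 points without Kdm6b-cKO replicate 4. The difference of 24.4 points ± 16 (SE) did not pass (adjusted p = 0.498 by limma). With lists of equal covered length its sign turned, to -9.48 points (adjusted p = 0.620 by limma). It also turned with equal peak numbers, to -16.5 points (adjusted p = 0.0861 by limma). The latter is the whole WT mean, since the shortened Kdm6b-cKO lists held no peak at this promoter. Both cuts were to the level of WT replicate 9 and fell mostly on the Kdm6b-cKO lists. A loss at Tchhl1 therefore cannot be told from the cut. The gene itself was covered over 100% and 27.6% in Kdm6b-cKO and over 0% and 17.8% in WT. Within 25 kb, where the window also takes in part of Tchh, Tchhl1 had 11.4 and 4.94 kb in Kdm6b-cKO, against totals of 7.99 and 8.57 kb in WT, so that the genotypes overlapped.

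The Lce genes, made late in the granular layer, were bare apart from single peaks in the Lce3 group. Of the 21 Lce members, 15 had no peak within 25 kb in any library. The Lce3d promoter had 722 bp covered in Kdm6b-cKO replicate 4 and 0 bp in Kdm6b-cKO replicate 3 and in both WT libraries. The difference of 6.02 points had an adjusted p of 0.533 by limma, but 0.0138 without Kdm6b-cKO replicate 3, when the lone remaining Kdm6b-cKO library is assumed to vary as the WT libraries do. Lce3a had 318 bp in Kdm6b-cKO replicate 3 alone and Lce3e had 327 bp in Kdm6b-cKO replicate 4 alone, both under 500 bp and so untested. Within 25 kb, Lce3a had 0.318 and 0.367 kb in Kdm6b-cKO, against 0 kb in both WT libraries, from a different peak in each library and again untested. Lce3f had 0.327 kb in Kdm6b-cKO replicate 4 alone. Within 25 kb, Lce3c had 0.318 and 1.42 kb in Kdm6b-cKO, against 0.321 kb in WT replicate 7 and 0 kb in WT replicate 9. Coverage of Lce3b, Lce3d and Lce3e was at most 1.42 kb in any library and did not separate the genotypes. In the Lce3d and Lce3e peaks, 79.4% and 52.6% of 100-base windows were unique.

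The Sprr genes, whose products cross-bridge the envelope, had no covered promoter in any library. Within 25 kb, 10 of the 15 had no peak at all. Sprr2a1 and Sprr2a2, whose GENCODE starts lie next to each other, share 1 region (chr3:92236753-92239460) that was called in WT alone. It lies in an intron of the GENCODE model of Sprr2a2. The RefSeq start of Sprr2a2 lies 34727 bp farther along the gene, and by that start the region is upstream of Sprr2a2. The region held 0 and 0 kb of peaks in Kdm6b-cKO, against 0.806 kb in WT replicate 7 and 2.18 kb in WT replicate 9. The difference of -1.49 kb ± 0.825 (SE) did not pass (adjusted p = 0.294 by limma). Centring gave -5.55 kb (adjusted p = 0.0337), more than the window held in any library, since it takes the same amount from every gene. None of the 100-base windows of this region was unique in the genome, the highest fold ratios of its peaks were 2.32 and 2.40, and the part of repeated sequence in this result was not tested. Sprr2a3 had 0.551 kb in WT replicate 9 alone, again with no unique window. Sprr1a and Sprr4 had 0.241 kb of the same peak in Kdm6b-cKO replicate 3 alone.

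The remaining S100-fused genes and involucrin were nearly bare. Flg had 0.952 kb under a peak of Kdm6b-cKO replicate 4 and 0 kb in Kdm6b-cKO replicate 3 and both WT libraries (adjusted p = 0.669 by limma). That peak lay in the exon of filaggrin repeats, where 3.57% of 100-base windows were unique. Hrnr (hornerin) had 0 and 0.291 kb in Kdm6b-cKO, against 0.455 kb in WT replicate 7 and 0.438 kb in WT replicate 9, under the 500 bp needed for a test. The edge of the window cut through that WT region, which held 1.20 and 1.10 kb in full. Ivl, Crnn, Flg2 and Rptn had no peak within 25 kb in any library. For Rptn the nearest peak lay just outside the window in Kdm6b-cKO, at 25.1 and 25.4 kb, against 27.4 and 36.9 kb in WT.

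**Figure D3:**
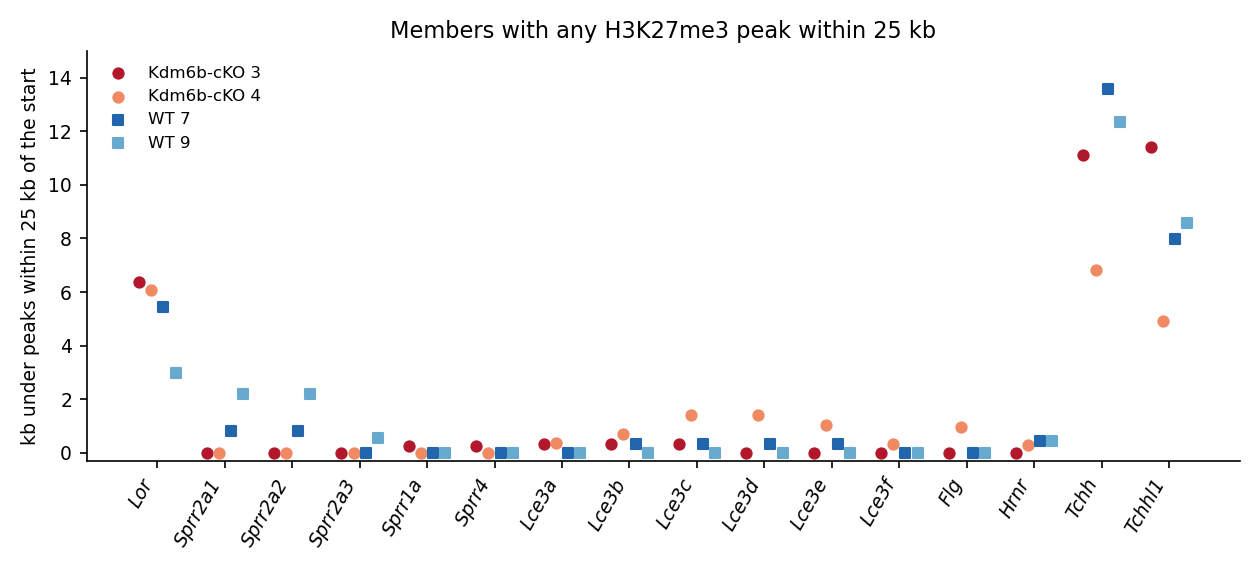
Length under peaks within 25 kb of the start, in kb, for the 16 members with any coverage, 1 point for each library (circles Kdm6b-cKO, squares WT), in chromosome order. Lor, Tchh and Tchhl1 stand above 2.9 kb in every library, and the other 13 stay at or under 2.18 kb.

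No member passed limma at either width. At the promoter 4 members were tested and 0 were called, with 1 (Tchh) at an unadjusted p under 0.05, while 7.93% of all 6252 tested promoters rose and 0.096% fell in Kdm6b-cKO. Within 25 kb 11 members were tested and 0 were called, with 0 at an unadjusted p under 0.05, while 7.69% of 11830 tested genes rose and 0.0% fell. Across all genes this was 496 higher and 6 lower at the promoter and 910 higher and 0 lower within 25 kb, and none of either without WT replicate 9. Within 25 kb there was also none without Kdm6b-cKO replicate 3 or without Kdm6b-cKO replicate 4. After centring, the split was 494 higher and 58 lower at the promoter and 1430 higher and 408 lower within 25 kb, and with equal covered length 133 higher and 78 lower, and 68 higher and 39 lower. The members' directions were mixed where most genes went up. Within 25 kb the Kdm6b-cKO libraries were both above the WT libraries in 1 of the 11 tested members (Lor), against 65.4% of all tested genes. They were both below them in 3 (Tchh and the pair Sprr2a1 and Sprr2a2, which share a region), against 1.67%. That pair had 0 kb in both Kdm6b-cKO libraries and passed the 500 bp filter through WT alone, so the filter fixed its direction. Of the 3, only Tchh was covered in both genotypes. The median difference of the tested members was 0.347 kb, and that of all tested genes was 2.41 kb. At the promoter the medians were 15.2 points over 4 members and 11.7 points over all.

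The same held for the interval as a whole. Peaks covered 27.7 and 21.5 kb of it in Kdm6b-cKO, against 27.2 and 21.8 kb of it in WT. The means were 1.77% ± 0.313 for Kdm6b-cKO and 1.76% ± 0.274 for WT (SD, n = 2 each). The values of the genotypes interleaved. Over all autosomes and X, by contrast, peaks covered 148 and 124 Mb in Kdm6b-cKO and 91.4 and 61.5 Mb in WT, from 44084 and 40577 peaks called in Kdm6b-cKO, against 29848 and 22607 called in WT. Of each Mb under peaks, 187 and 174 bp fell in the complex in Kdm6b-cKO, against 297 and 354 bp in WT. This share moves with the covered total of a library, which was higher in Kdm6b-cKO while the coverage of the complex overlapped between genotypes. The Kdm6b-cKO values both lay below both WT values, with p = 0.33 in an exact two-sided permutation test, the smallest that 2 against 2 libraries allow. Lists of equal covered length, for which the Kdm6b-cKO lists were cut most, gave 0.198% of the interval in Kdm6b-cKO and 1.38% in WT. Peaks with a -log10 q of at least 4 gave 0.453% in Kdm6b-cKO and 0.657% in WT. The share of the interval was below that of the autosomes and X, 5.63% and 4.70% in Kdm6b-cKO and 3.47% and 2.34% in WT, but near the middle of stretches of its own size: 49.6% and 51.2% of 1881 such genome tiles had less coverage in Kdm6b-cKO, against 59.3% and 64.1% in WT.

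Merging the 4 lists gave 25 regions in the interval. All 4 libraries called 5 of them (20%, against 19.9% of the 54317 regions genome-wide), which were the Lor region, both Tchh regions, 1 region of 0.844 and 0.779 kb in Kdm6b-cKO, against 2.56 and 2 kb of peaks in WT, between Hrnr and Rptn, and 1 of 0.458 and 0.608 kb in Kdm6b-cKO, against 0.847 and 0.562 kb of peaks in WT, ahead of Tchhl1. Of these 5, only the Lor region was longer in both Kdm6b-cKO libraries. Of the 3 regions called in 3 libraries, chr3:93362606-93368577 ahead of Rptn held 5.97 and 3.89 kb in Kdm6b-cKO, against 3.67 kb in WT replicate 7 and 0 kb in WT replicate 9. The region over Tchhl1 (chr3:93468680-93472403) held 3.72 and 0.891 kb in Kdm6b-cKO, against 0 kb in WT replicate 7 and 0.576 kb in WT replicate 9. Both were longer in both Kdm6b-cKO libraries, whereas chr3:93431276-93433961 ahead of Tchh overlapped, with 2.06 and 0.648 kb in Kdm6b-cKO, against 1.17 kb in WT replicate 7 and 0 kb in WT replicate 9. No region was called in both Kdm6b-cKO libraries and neither WT library, a pattern of 14.5% of regions genome-wide. The reverse pattern, both WT libraries and neither Kdm6b-cKO library, held for 2 regions (8%, against 0.609%). They were the region in the GENCODE intron of Sprr2a2 and chr3:93344294-93345490 beyond Hrnr. The latter held 1.20 and 1.10 kb in WT, and 99.4% of its 100-base windows were unique. Regions of 1 library made up 15 of the 25 (60%, against 49.6%). They were 0.241 to 0.952 kb long, 11 came from Kdm6b-cKO and 4 from WT, and 7 had under 90% unique windows.

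Other gene clusters of the cornifying epidermis and hair had more coverage in Kdm6b-cKO than in WT. Keratin genes on chromosome 15 were covered over 44.0% and 43.9% in Kdm6b-cKO, against 13.5% and 9.38% in WT, and the Padi genes, which convert arginines of filaggrin and trichohyalin to citrulline, over 47.9% and 38.9% in Kdm6b-cKO, against 7.38% and 3.72% in WT. Keratin genes on chromosome 11 had 9.95% and 7.74% in Kdm6b-cKO, against 1.52% and 0.768% in WT, and the keratin-associated genes inside that cluster 5.89% and 4.63% in Kdm6b-cKO, against 1.96% and 0.864% in WT. The keratin-associated genes on chromosome 16 had no peak in any library. In each of the other 4 of these clusters the Kdm6b-cKO values were both above the WT values, whereas in the complex the genotypes interleaved, and 2 against 2 libraries allow no exact p below 0.33. With lists of equal covered length the Padi genes averaged 14.7% in Kdm6b-cKO and 2.15% in WT, and the keratins of chromosome 11 averaged 1.72% in Kdm6b-cKO and 0.597% in WT. Median promoter CpG was 4 per kb in the complex, 6.50 in the keratin-associated genes of chromosome 16, 8.33 in those of chromosome 11, 14.2 and 14 in the keratins of chromosomes 15 and 11, and 18.5 in the Padi genes.

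**Figure D4:**
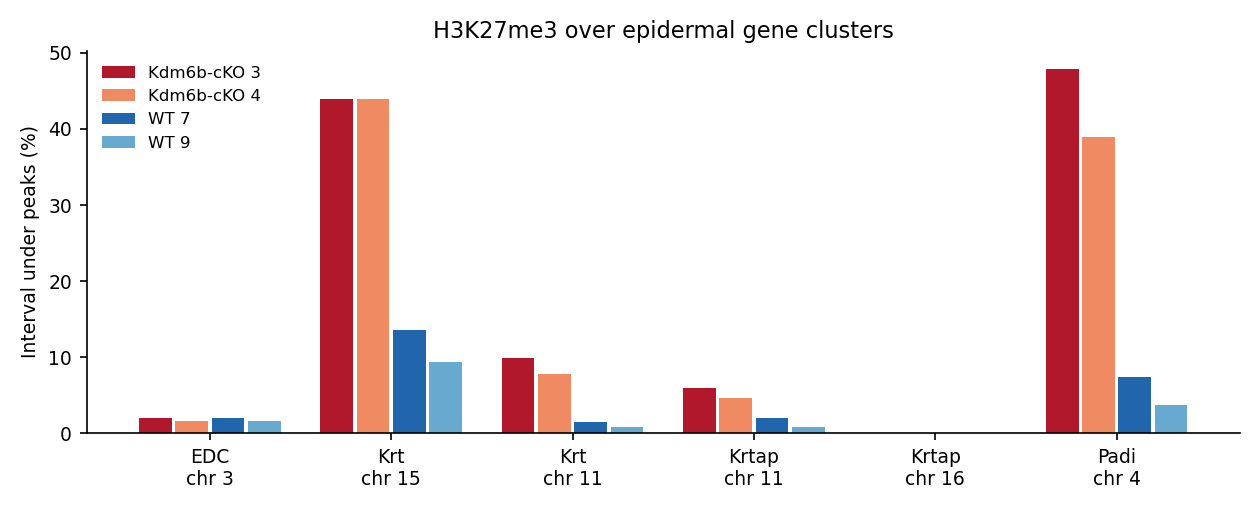
Share of each gene cluster under peaks, in percent, with 1 bar for each library (Kdm6b-cKO left of WT). The bars of the epidermal differentiation complex (EDC) stay between 1.55% and 1.99% in all 4 libraries, while those of the keratin and Padi clusters are taller in Kdm6b-cKO.

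**Figure D5:**
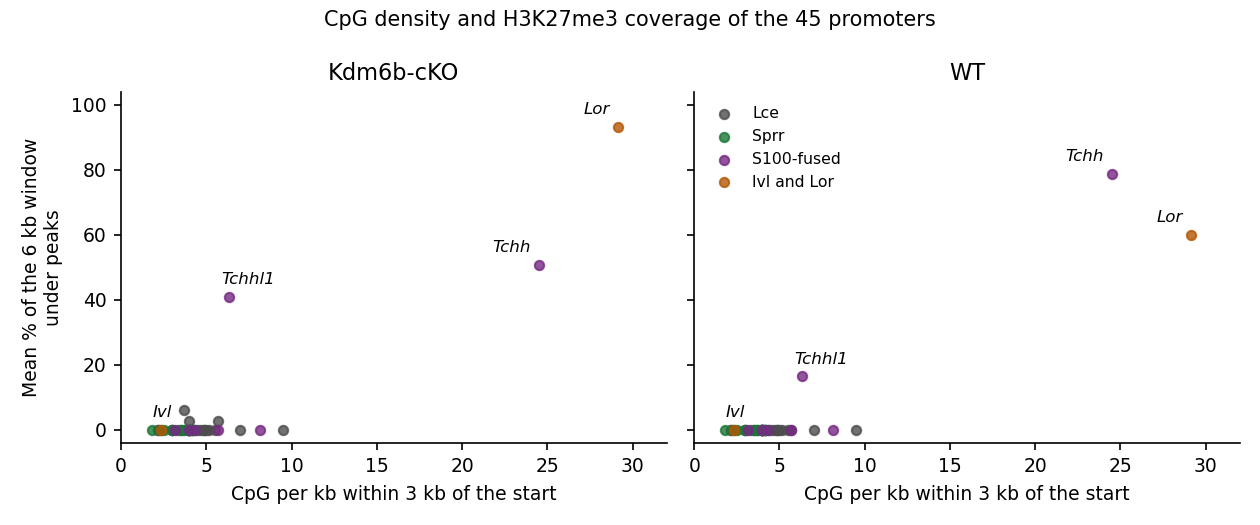
CpG per kb in the 6 kb around the start against the mean percent of that window under peaks, for the 45 members in Kdm6b-cKO (left) and WT (right), coloured by family, with n = 2 libraries a genotype. Lor and Tchh stand alone at 29.2 and 24.5 CpG per kb and are covered in both genotypes, and Tchhl1 is covered at 6.33.

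Genes listed as epidermal regulators or envelope enzymes were marked more often than the members of the complex, and more often than the 28.8% of all genes. Of 30 genes listed under regulators of epidermal differentiation, 22 were marked in at least 1 library and 17 in all 4. For 12 the whole window was covered in every library. Among these were Grhl3, Ovol1, Gata3 and Tfap2a, but also Cdh1 and Esrp1, which are general epithelial genes. Of 25 enzymes of the envelope and the lipid barrier, 14 were marked and 2 rose, beside 7.93% of all tested promoters. They were the kallikrein proteases Klk7 (48.5% and 56.2% in Kdm6b-cKO, against 0% and 0% in WT, adjusted p = 0.0306 by limma) and Klk8 (34.9% and 31.8% in Kdm6b-cKO, against 0% and 0% in WT, adjusted p = 0.0223 by limma). Without WT replicate 9 neither of these calls was made. Of 21 structural keratinocyte genes outside the complex 14 were marked and 0 passed. The largest difference was that of Krt2, a keratin of the upper epidermis, with 100% and 53.4% in Kdm6b-cKO and 0% and 0% in WT (adjusted p = 0.176 by limma). Of 31 further genes of chromosome 3 from the S100 and neighbouring families 3 were marked (Them5, Pglyrp4 and S100a9) and 0 passed. None of 16 fibroblast markers, Col1a1, Pdgfra and Twist2 among them, was marked in any library, while 9 of 17 markers of other skin cell types were. A peak list holds no expression, so neither the deletion of Kdm6b nor the silence of the members can be read from it.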

How the data were processed

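The authors prepared H3K27me3 ChIP-seq libraries of cultured dermal fibroblasts with an enzymatic chromatin kit and a KAPA Hyper kit. The submitters' processing notes list mm10, with MACS2 2.2.7.1, deepTools 3.5.1, SAMtools 1.9, Bowtie2 2.3.5.1 and bcl2fastq. Libraries were, by the study's methods, subsampled to a like depth and broad peaks were called at q 0.01, in each library on its own. How the input entered the calling is not given in the sources used here, and the input was not used. Each deposited list gives peak positions with a display score, a fold ratio over background and -log10 p and q, as the authors' caller wrote them. Read counts are not among these values, so the reads behind a peak are unknown and no counting interval is given.

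From the positions, covered bp was computed within 3 kb and 25 kb of the start of 21728 genes (GENCODE M21, 1 gene per symbol). Windows with at least 500 bp in at least 1 library were tested with limma 3.58.1 (R 4.3.3), Kdm6b-cKO minus WT, without covariates, at an adjusted p of 0.05. The code was tested on simulated data. A 100-base window counts as unique where it occurs once in GRCm38 on either strand. All members are accounted for, and those with a covered promoter are named with the promoter values of all 4 libraries. Of the other gene lists up to 4 genes with the largest differences are named, besides genes covered in full. Members, lists and tests were chosen with earlier results of these data known, and 1 listed gene that lies on another chromosome was left out of the S100 list. Alternatives were the strongest peaks at equal number (22597) or equal length (61.5 Mb), peaks with -log10 q of at least 4, no filter, centring, all transcript starts, other minimum lengths, a wider interval, 50% overlap and leaving out each library.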

Additional observations from a re-analysis of the deposited data

How the results depend on the processing

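No member passed limma in most settings. Members lower in Kdm6b-cKO numbered 1 at the promoter after centring and 1 with equal covered length, and 3 and 1 within 25 kb. Leaving out each library gave 0 to 1 members higher at the promoter and 0 in every other count. Marked members averaged 3.5 in Kdm6b-cKO and 3.0 in WT. They averaged 2.0 in Kdm6b-cKO with equal peak numbers, 0.5 and 2.5 in Kdm6b-cKO and WT with equal covered length, 1.0 and 1.5 with -log10 q of at least 4, 4.5 in Kdm6b-cKO from 1 bp, 2.5 and 2.0 from 1500 bp, and 3.0 to 4.0 and 3.0 when 1 library was left out. Of the interval, peaks covered 1.26% in Kdm6b-cKO with equal peak numbers, 0.198% and 1.38% in Kdm6b-cKO and WT with equal covered length, 0.453% and 0.657% with -log10 q of at least 4, 1.43% and 1.33% with 250 kb added on each side, and 1.55% to 1.99% and 1.56% to 1.95% when 1 library was left out. With 50% overlap 1 region, not 5, was called in all 4 libraries. Genes lower in Kdm6b-cKO at the promoter numbered 6, and 16 with equal peak numbers, 1 without a filter, 11 with -log10 q of at least 4, 62 without Kdm6b-cKO replicate 3 and 24 without Kdm6b-cKO replicate 4. Genes higher numbered 496, and 151 without a filter and 1166 and 1355 without Kdm6b-cKO replicates 3 and 4. Within 25 kb 910 were higher, and 354 with equal peak numbers, 178 without a filter (3 lower), 1528 when WT replicate 7 was left out and 0 when Kdm6b-cKO replicate 3, Kdm6b-cKO replicate 4 or WT replicate 9 was. The cause of these shifts was not tested. No paired analysis was possible because the groups share no replicate numbers.

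The lists differ in total length by more than the members do, and 2 libraries a genotype cannot reach an exact p below 0.33. Signal under the caller's threshold cannot be seen in peak lists.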
